A study of Mus musculus with 12 samples.

Results

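Amino acid transporters were examined in quiescent satellite cells (QSCs) as the protein-coding genes whose symbols belong to the solute carrier families SLC1, SLC3, SLC7, SLC36, SLC38 and SLC43. The rule chose genes by name alone and found 37 of the 25093 genes in the count table, namely 7 of SLC1, 2 of SLC3, 12 of SLC7, 3 of SLC36, 10 of SLC38 and 3 of SLC43. *Slc7a6os* is caught by its symbol although it is a neighbour of *Slc7a6* on the opposite strand and no transporter, and *Slc43a3* is known as a carrier of purine bases. The samples were satellite cells sorted from hindlimb muscles of mice aged 3 to 4 months. Control mice were Pax7-CreERT2/+;Gli3+/+;R26R-YFP (*Gli3*+/+) and knockout mice were Pax7-CreERT2/+;Gli3fl/fl;R26R-YFP (*Gli3*Δ/Δ), and both received tamoxifen, so the Cre allele, the reporter and the drug were shared by all libraries. Each genotype gave 3 QSC libraries from uninjured muscle, each made from 2 to 3 mice, in cells gated as α7-integrin and CD34 positive and negative for CD31, CD45, SCA1 and CD11b. Activated cells from injured muscle were also sequenced but are not analysed here. The deletion removes exon 8 of *Gli3* in cells that express *Pax7*, and the count of the whole gene does not check it: *Gli3* stood at 9.71 to 11.2 CPM (counts scaled to library size) in *Gli3*+/+ and at 6.26 to 10.5 CPM in *Gli3*Δ/Δ QSCs (log2 fold change -0.22, adjusted p = 0.916 by edgeR). The authors checked the excision by RT-qPCR in QSCs and their progeny and by Western blot in primary myoblasts.

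Amino acids cross the plasma membrane and the lysosomal membrane through carriers of several unrelated families. SLC1 proteins take up glutamate or small neutral amino acids with sodium, SLC38 proteins take up glutamine and other neutral amino acids with sodium, and SLC36 proteins are proton-coupled and in part lysosomal. SLC3 proteins are heavy chains that bring SLC7 light chains to the membrane, where the dimer exchanges 1 amino acid for another, while the cationic carriers of SLC7 work without a heavy chain and carry arginine and lysine. Leucine, arginine and glutamine brought in this way are inputs to mTORC1, the kinase complex that couples nutrients to growth. A shortage of amino acids is known to raise the translation of ATF4, a transcription factor whose targets include several of these carriers and the aminoacyl-tRNA synthetases.

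The 6 libraries held 39556784 to 65750131 estimated counts. The 10 satellite cell markers were present in all of them, at a summed 7460 to 8056 CPM in *Gli3*+/+ and 7299 to 8569 CPM in *Gli3*Δ/Δ QSCs. Control replicate 3 correlated least with the rest, at 0.962 to 0.973 across genes in log2(CPM + 1) with the other 5 libraries. Those 5 correlated with each other at 0.973 to 0.987, so the ranges met. Values without control replicate 3 are given where it moved a result most. Control replicate 1 was highest for other lists, with summed erythroid markers at 373 CPM against 33.6 to 169 CPM. Its summed endothelial markers were 283 CPM against 185 to 208 CPM. Its summed genes of the response to tissue dissociation were 48650 CPM against 33090 to 39500 CPM. The summed Schwann cell markers were lower in *Gli3*Δ/Δ libraries, at 41.9 to 64.6 CPM against 76.6 to 109 CPM. Of the 6 markers, 5 were lower without overlap between genotypes, where 6.57% of all genes were, although edgeR called 0 of them. The remaining marker, *Ngfr*, went the other way with overlap, at 9.18 to 16.2 CPM against 7.56 to 12.2 CPM.

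The members differed widely in level in QSCs. Of the 37 members, 28 had a mean of at least 1 CPM over the 6 libraries and 9 lay below it, where 14696 of all 25093 genes reached 1 CPM. Levels were compared between genes only per kilobase of the union of a gene's exons. On that scale *Slc43a3* was the highest with a mean of 140 CPM per kb ± 37.5 (SD, n = 6), followed by *Slc7a8* at 86.1 ± 19.9, *Slc3a2* at 56.6 ± 6.57, *Slc38a2* at 53.0 ± 5.47, *Slc7a5* at 50.4 ± 33.4 and *Slc7a2* at 24.3 ± 7.42 CPM per kb. Next came *Slc43a1*, *Slc38a10* and *Slc43a2* at 16.7, 16.7 and 16.5 CPM per kb and *Slc7a6os* at 9.52 CPM per kb. Among these 10 the ranges over libraries of neighbours in the order overlapped, except that *Slc43a2* lay above *Slc7a6os* in all 6 libraries without overlap. *Slc43a3* was above *Slc7a8* in 6 of 6 libraries, whereas *Slc3a2* was above *Slc38a2* in 4 of 6. Per kilobase of the longest transcript instead, *Slc38a2* passed *Slc3a2* (76.6 against 71.0 CPM per kb).

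**Figure D1:**
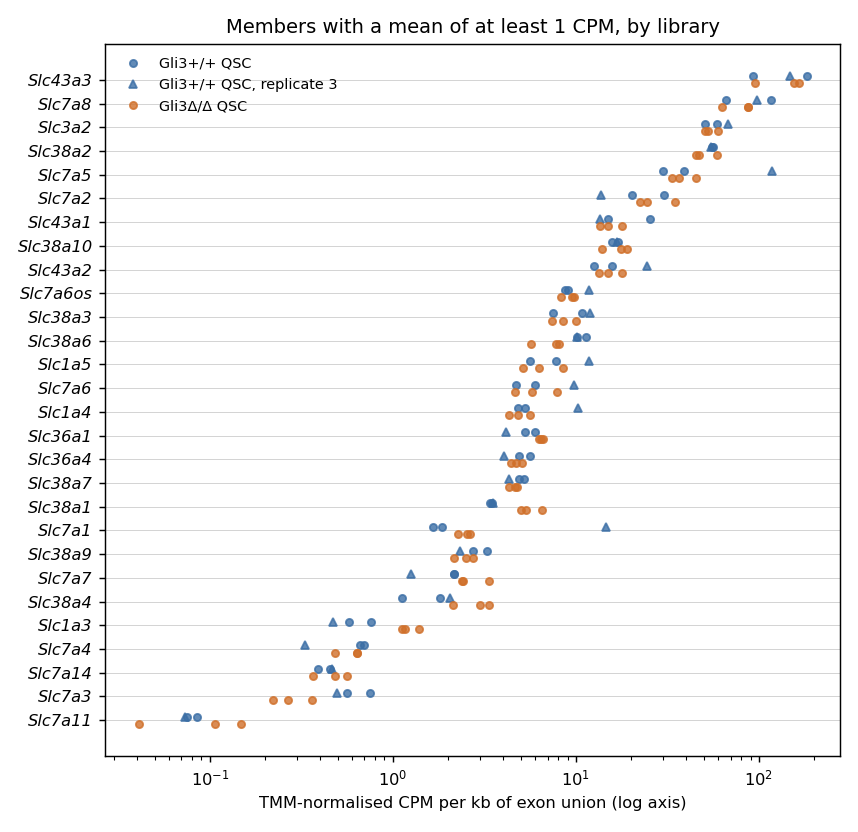
Level of the 28 members with a mean of at least 1 CPM in each of the 6 QSC libraries, as CPM per kb of exon union on a log axis, with *Gli3*+/+ in blue (replicate 3 as triangles) and *Gli3*Δ/Δ in orange. *Slc43a3* and *Slc7a8* lead the order, and the triangle lies to the right of the other points for *Slc7a5* and *Slc7a1*.

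The 9 members under 1 CPM were *Slc3a1*, *Slc38a5*, *Slc36a2*, *Slc38a11*, *Slc7a13* and 4 of the 7 SLC1 genes, *Slc1a1*, *Slc1a2*, *Slc1a6* and *Slc1a7*. The glutamate carrier *Slc1a2*, the main glutamate transporter of astrocytes, had 1 count in each of 2 control libraries and 0 in the other 4 libraries. *Slc7a13* had 0 to 5 counts per library. *Slc1a1*, a neuronal and epithelial glutamate carrier, had 4 to 41 counts per library. None of the 9 was called by edgeR or limma-voom, nor by DESeq2 among the 7 to which it gave an adjusted p (all but *Slc7a13* and *Slc1a2*).

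The comparison of *Gli3*Δ/Δ with *Gli3*+/+ QSCs asks whether loss of GLI3 in resting muscle alters these genes. A gene was called where edgeR's quasi-likelihood test gave a Benjamini-Hochberg adjusted p below 0.05 together with a change of 1.2-fold or more. On this rule 0 of 37 members were called, against 0.351% of all genes tested, 0.187% higher and 0.163% lower. At an unadjusted p under 0.05 there were 6 members, 3 higher and 3 lower, where 7.11% of all genes passed. DESeq2 gave an adjusted p for 34 members and called 2 of them, *Slc38a1* and *Slc1a3*, both higher in *Gli3*Δ/Δ, against 1.64% in either direction and 0.822% higher of the 23369 genes to which it gave one, and limma-voom called 0, against 0.291%. The libraries of the genotypes did not overlap for 5 members higher in *Gli3*Δ/Δ, *Slc38a1*, *Slc1a3*, *Slc38a4*, *Slc7a7* and *Slc36a1* (background 6.39% of all genes), and for 3 lower, *Slc38a6*, *Slc7a3* and *Slc36a2* (background 6.57%). Among the 28 members with at least 1 CPM these were 5 higher and 2 lower, against 7.74% and 6.35% of such genes. The median log2 fold change of the 37 members was -0.16 beside -0.03 over all genes. Among those with at least 1 CPM the medians were -0.11 and -0.02, and without control replicate 3 they were 0.03 and 0.02. In bulk libraries fewer cells that carry a transcript and less of it in each cell cannot be told apart.

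*Slc38a1*, a sodium-coupled carrier of glutamine and other neutral amino acids, was measured at 58.4, 59.9 and 60.4 CPM in *Gli3*+/+ replicates 1 to 3 and at 86.6, 112 and 91.8 CPM in *Gli3*Δ/Δ replicates 1 to 3. The 3 control libraries were nearly equal and all 3 knockout libraries lay above them. Its log2 fold change was 0.70 ± 0.14 (SE), with an adjusted p of 0.109 by edgeR and 0.00125 by DESeq2. Leaving out each library in turn gave log2 fold changes of 0.58 to 0.78, with adjusted p-values of 0.121 to 0.375 by edgeR and 0.000605 to 0.0147 by DESeq2. DESeq2 called it in each of these fits and edgeR in none.

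*Slc1a3*, the glutamate and aspartate carrier best known from glia, was low but higher in every *Gli3*Δ/Δ library. It stood at 6.46, 4.89 and 4.01 CPM in *Gli3*+/+ and at 9.52, 11.8 and 9.91 CPM in *Gli3*Δ/Δ QSCs, from 173 to 790 counts per library. The log2 fold change was 1.02 ± 0.22 (SE), with an adjusted p of 0.153 by edgeR and 0.00235 by DESeq2. Without control replicate 3, where it was lowest, the log2 fold change was 0.88 with an adjusted p of 0.229 by edgeR and 0.0065 by DESeq2. DESeq2 lost the call without *Gli3*Δ/Δ replicate 2 (adjusted p = 0.0654). The summed Schwann cell markers, a glial list, were lower in the same *Gli3*Δ/Δ libraries (41.9 to 64.6 against 76.6 to 109 CPM), and their part in the *Slc1a3* value was not tested.

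The other SLC38 carriers did not share 1 direction. *Slc38a4*, a system A carrier of neutral amino acids, was measured at 4.77, 7.72 and 8.75 CPM in *Gli3*+/+ and at 12.7, 14.3 and 9.05 CPM in *Gli3*Δ/Δ QSCs. The groups were separated by a narrow margin between control replicate 3 and knockout replicate 3 (log2 fold change 0.76 ± 0.27, unadjusted p = 0.0192, adjusted p = 0.54 by edgeR). *Slc38a6*, a member of the family whose substrates are less well defined, was measured at 79.0, 88.0 and 78.6 CPM in *Gli3*+/+ and at 62.9, 60.2 and 44.0 CPM in *Gli3*Δ/Δ QSCs. Every knockout library was below every control library (log2 fold change -0.56 ± 0.16, unadjusted p = 0.00753, adjusted p = 0.396 by edgeR). *Slc38a2*, the glutamine carrier induced by amino acid shortage in many cells, was abundant, at 491, 497 and 484 CPM in *Gli3*+/+ and 522, 416 and 401 CPM in *Gli3*Δ/Δ QSCs (log2 fold change -0.14 ± 0.14). *Slc38a9*, the lysosomal carrier that senses arginine for mTORC1, was measured at 46.0, 54.4 and 39.1 CPM against 45.9, 42.0 and 36.0 CPM, with overlapping groups. *Slc38a10* was measured at 101, 109 and 107 CPM against 89.3, 114 and 122 CPM.

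The upstream sequences of *Slc1a3* and *Slc38a6* are shown because these members separated the genotypes in opposite directions and have entries in RefSeq's promoter table (build GRCm38.p6), which held 27 of the 37 members. Bases inside an annotated exon were left out. For *Slc1a3* the run is chr15:8710808-8711057 on the minus strand, and for *Slc38a6* it is chr12:73286598-73286778 on the plus strand. Capitals mark matches to 5 motifs searched on both strands in the 250 bases before the start: TGATGNAA (the core of the C/EBP-ATF response element), TGACGTCA (the cAMP response element), TGANTCA (an AP-1 site), GACCACCCA (a GLI site) and CACGTG (a palindromic E-box). None of the matches overlapped another.
Slc1a3: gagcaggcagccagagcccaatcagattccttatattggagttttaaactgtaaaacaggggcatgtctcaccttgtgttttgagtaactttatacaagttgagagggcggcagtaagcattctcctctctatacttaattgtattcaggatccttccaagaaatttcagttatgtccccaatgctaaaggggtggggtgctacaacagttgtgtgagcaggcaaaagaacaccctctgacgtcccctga
Slc38a6: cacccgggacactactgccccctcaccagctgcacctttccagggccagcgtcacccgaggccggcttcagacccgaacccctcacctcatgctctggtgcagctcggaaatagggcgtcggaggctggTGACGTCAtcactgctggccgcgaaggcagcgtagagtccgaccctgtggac
The sequence of *Slc38a6* held TGACGTCA starting 121 bases before the start, a match found in 1.55% of the 32851 promoters of the table and in no other member. *Slc1a3* held none of the 5 motifs in this window. GACCACCCA was in 0.225% of all promoters and in 0 of the 36 promoters listed for members. CACGTG was in 6.02% of all promoters and in 7 of the 36, those of *Slc1a6*, *Slc1a7*, *Slc36a1*, *Slc38a5*, *Slc38a7*, *Slc43a1* and *Slc7a14*. These matches describe letters in a window and were not tested as sites.

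**Figure D2:**
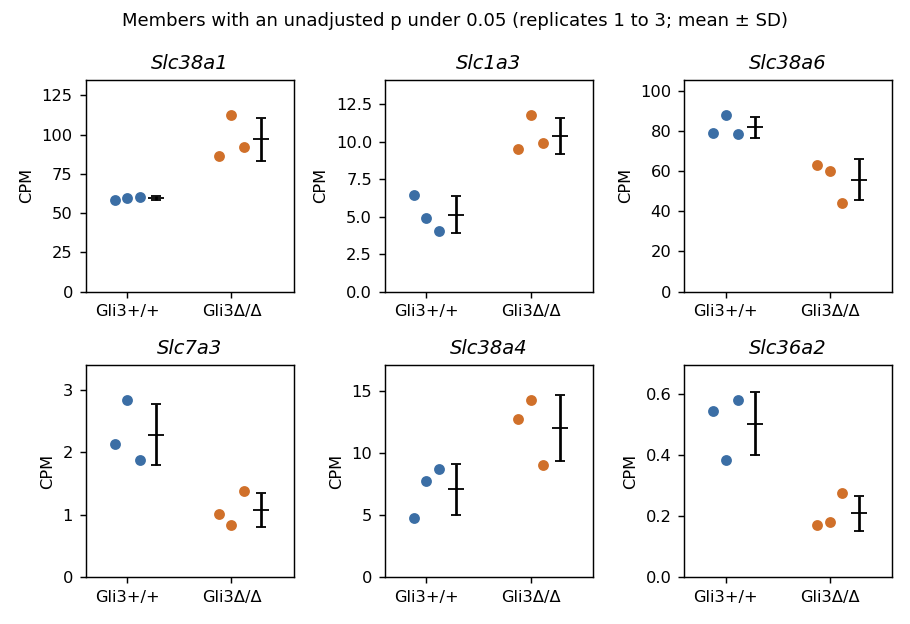
CPM in the 3 *Gli3*+/+ (blue) and 3 *Gli3*Δ/Δ (orange) QSC libraries for the 6 members with an unadjusted p under 0.05, each from an axis that starts at 0, with the mean ± SD in black. *Slc38a1*, *Slc1a3* and *Slc38a4* lie higher in every knockout library, and *Slc38a6*, *Slc7a3* and *Slc36a2* lie lower in every knockout library.

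The heavy chain *Slc3a2* and its light chains showed no called difference between genotypes. *Slc3a2* was measured at 179, 207 and 238 CPM in *Gli3*+/+ and at 185, 180 and 210 CPM in *Gli3*Δ/Δ QSCs (log2 fold change -0.12 ± 0.15, and -0.012 without control replicate 3). Its light chain *Slc7a5* (LAT1), which carries leucine and other large neutral amino acids, was measured at 111, 145 and 436 CPM against 168, 124 and 137 CPM. Control replicate 3 alone was far above the others, the log2 fold change of -0.69 ± 0.45 had an adjusted p of 0.856, and without that library it was 0.16 with an adjusted p of 0.88 by edgeR. *Slc7a8* (LAT2), the second neutral light chain, was the more abundant of these light chains per kilobase and was measured at 330, 581 and 487 CPM against 435, 315 and 437 CPM (log2 fold change -0.24 ± 0.22). *Slc7a6* (y+LAT2), which exchanges cationic for neutral amino acids, was measured at 21.4, 27.2 and 44.7 CPM against 36.1, 21.1 and 26.5 CPM, again with its highest value in control replicate 3 (log2 fold change -0.16 ± 0.29, and 0.2 without that library). *Slc7a7* (y+LAT1), a related exchanger prominent in macrophages and epithelia, was measured at 7.13, 7.14 and 4.15 CPM against 7.94, 7.97 and 11.1 CPM (log2 fold change 0.55 ± 0.26, unadjusted p = 0.0644, adjusted p = 0.733 by edgeR). Without control replicate 3, its lowest library, the log2 fold change was 0.33. The summed macrophage markers overlapped between the genotypes, at 12.7 to 32.8 CPM in *Gli3*+/+ and 11.6 to 19.4 CPM in *Gli3*Δ/Δ QSCs. *Slc7a11* (xCT), the cystine and glutamate exchanger, was near the floor at 1.04, 1.19 and 1.02 CPM against 2.06, 1.49 and 0.57 CPM.

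The cationic carriers differed from each other in level. By mean per kilobase *Slc7a2* (CAT2) was the most abundant at 24.3 CPM per kb ± 7.42 (SD, n = 6), above *Slc7a1* at 4.26 ± 5.075 and *Slc7a3* at 0.44 CPM per kb. In control replicate 3 the order of *Slc7a2* and *Slc7a1* was reversed, at 13.6 and 14.6 CPM per kb. *Slc7a2* was measured at 277, 186 and 125 CPM in *Gli3*+/+ and 205, 316 and 224 CPM in *Gli3*Δ/Δ QSCs, and its lowest value was in control replicate 3 (log2 fold change 0.34 ± 0.28, and 0.10 without that library). *Slc7a1* (CAT1), the widely expressed arginine and lysine carrier, was measured at 21.5, 19.1 and 168 CPM against 30.5, 29.2 and 26.2 CPM. Its log2 fold change of -1.28 ± 0.73 (adjusted p = 0.818 by edgeR, none given by DESeq2) rested on control replicate 3. Without that library all 3 knockout values lay above both controls, with a log2 fold change of 0.50 ± 0.13 and an adjusted p of 0.307 by edgeR and 0.0478 by DESeq2. Removing the library with the highest value of *Slc7a1* raises its log2 fold change by construction. That DESeq2 fit called 499 of all genes, against 384 with all 6 libraries. *Slc7a3* (CAT3), a carrier known mainly from brain, was low at 2.14, 2.83 and 1.88 CPM in *Gli3*+/+ and 1.01, 0.84 and 1.38 CPM in *Gli3*Δ/Δ QSCs, from 53 to 191 counts. Its groups did not overlap (log2 fold change -1.09 ± 0.32, unadjusted p = 0.00767, adjusted p = 0.4 by edgeR), and DESeq2 called it only without *Gli3*Δ/Δ replicate 3 (adjusted p = 0.0471).

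The uniporters of SLC43 and the small neutral carriers of SLC1 were called by none of the 3 tools. *Slc43a1* (LAT3) was measured at 85.9, 144 and 77.4 CPM in *Gli3*+/+ and at 85.3, 77.8 and 102 CPM in *Gli3*Δ/Δ QSCs. *Slc43a2* (LAT4) was measured at 125, 157 and 246 CPM against 150, 134 and 179 CPM (log2 fold change -0.19 ± 0.24, and 0.13 without control replicate 3). *Slc43a3* was measured at 415, 817 and 658 CPM against 738, 425 and 693 CPM, so that its libraries varied within each genotype by more than the genotypes differed (log2 fold change -0.03 ± 0.28). *Slc1a5* (ASCT2), the glutamine carrier that supplies the LAT1 exchange in many dividing cells, was measured at 23.5, 32.5 and 49.5 CPM against 35.3, 26.1 and 21.5 CPM (log2 fold change -0.35 ± 0.28, and -0.02 without control replicate 3). *Slc7a6os* was measured at 36.9, 38.1 and 49.9 CPM against 41.2, 34.8 and 40.1 CPM.

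Of the proton-coupled carriers, *Slc36a1* (PAT1), found on lysosomes and linked to mTORC1, was measured at 29.6, 33.6 and 23.3 CPM in *Gli3*+/+ and at 35.3, 36.1 and 37.0 CPM in *Gli3*Δ/Δ QSCs. The groups did not overlap, with a log2 fold change of 0.33 ± 0.16 and an adjusted p of 0.751 by edgeR, and the log2 fold change was 0.19 without control replicate 3. *Slc36a4* (PAT4) was measured at 36.6, 32.1 and 26.6 CPM against 30.7, 29.0 and 33.2 CPM and overlapped. *Slc36a2* (PAT2) was near the floor, with 22 to 26 counts in the controls and 9 to 14 in the knockout libraries, or 0.55, 0.39 and 0.58 CPM against 0.17, 0.18 and 0.28 CPM (log2 fold change -1.26 ± 0.49, unadjusted p = 0.0305, adjusted p = 0.627 by edgeR). The summed level of all 37 members was 3163 CPM ± 500.3 in *Gli3*+/+ and 2904 CPM ± 249 in *Gli3*Δ/Δ QSCs (SD, n = 3 each), a difference smaller than the spread of the controls.

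**Figure D3:**
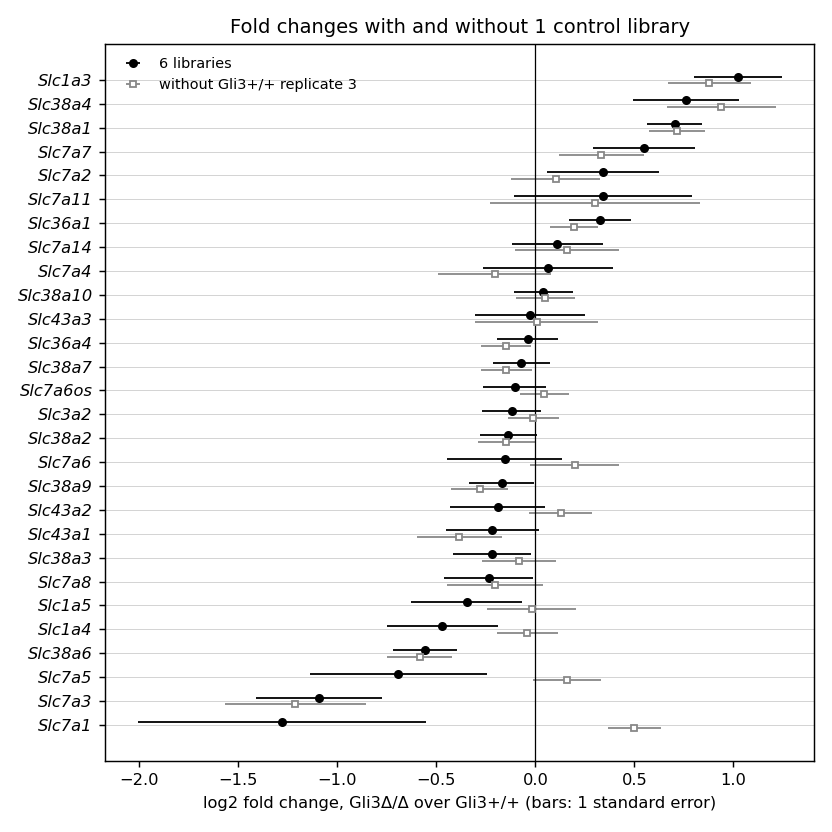
Log2 fold change of *Gli3*Δ/Δ over *Gli3*+/+ QSCs with 1 standard error for the 28 members with a mean of at least 1 CPM, from all 6 libraries (black) and without control replicate 3 (open grey). *Slc7a1* and *Slc7a5* change from -1.28 and -0.69 to 0.50 and 0.16, while *Slc38a1* stays at 0.70 and 0.71.

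Control replicate 3 was the highest of the 6 libraries for 9 of the 28 members with at least 1 CPM, near the background of 27.5% of all such genes. It was at least 1.5 times the mean of the other 5 libraries for 6 of the 28, where 10.3% of all genes were. These 6 were *Slc7a1* (6.66 times), *Slc7a5* (3.19 times), the neutral carrier *Slc1a4* (2.07 times), *Slc1a5* (1.78 times), *Slc7a6* (1.69 times) and *Slc43a2* (1.65 times). Other carriers of neutral amino acids were not, among them *Slc7a8* (1.16 times), *Slc38a2* (1.04 times) and *Slc38a1* (0.739 times). The same library was low for *Slc1a3* (0.471 times), *Slc7a7* (0.504 times), *Slc7a2* (0.516 times) and *Slc7a4* (0.529 times). The other 5 libraries include all 3 *Gli3*Δ/Δ libraries, so a difference between genotypes enters this ratio. Among the controls alone, *Slc1a3* was 4.01 CPM in replicate 3 beside 6.46 and 4.89 CPM. For *Slc38a1* control replicate 3 was the highest control, at 60.4 CPM beside 58.4 and 59.9 CPM. The cationic carriers *Slc7a1* and *Slc7a2* deviated in opposite directions in control replicate 3, the first upwards and the other downwards.

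Genes of amino acid use were high in this library as well. Of the 20 cytosolic aminoacyl-tRNA synthetases, which charge tRNAs with amino acids, 17 were highest in control replicate 3 and 11 were at least 1.5 times the mean of the other 5, with a median ratio of 1.52. *Aars*, the alanine enzyme, was 181 CPM there and 58.4 to 81.2 CPM elsewhere. Of 24 expressed genes of ATF4 and the amino acid response, 15 were highest there and 11 were at least 1.5 times the others, with a median of 1.43. *Mthfd2*, an enzyme of mitochondrial folate metabolism, was 44.5 CPM there and 4.94 to 14.1 CPM elsewhere, and the transcription factor gene *Atf5* was 136 CPM there and 49.8 to 71.9 CPM elsewhere. The deviation was not confined to these lists. Of 12 genes of NRF2, cystine and glutathione, 7 were highest there, against 27.5% of all genes with at least 1 CPM. Of the same 12, 2 were at least 1.5 times the others, with a median of 1.22 and *Srxn1* at 8.62 times. By contrast the median ratio was 0.94 for 37 genes of mTORC1 amino acid sensing, 0.93 for 13 amino acid transporters outside the rule and 0.99 over all genes with at least 1 CPM. The summed mural and fibro-adipogenic markers were also highest there, but most of the single markers were not. The summed mural markers were 428 CPM in this library and 148 to 218 CPM in the other 5, led by *Acta2*, smooth muscle actin, at 347 CPM against 101 to 171 CPM. *Myh11* was highest there by a small margin (27.6 against 4.68 to 27.4 CPM), and *Rgs5*, *Pdgfrb* and *Cspg4* were not highest there. The summed fibro-adipogenic markers were 890 CPM against 553 to 801 CPM, with the collagen gene *Col1a1* at 332 CPM against 75.4 to 188 CPM. None of the other markers of that list was highest there, and *Pdgfra* was lowest there (1.65 against 1.73 to 3.80 CPM). The part of these cells in the values of this library was not tested.

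**Figure D4:**
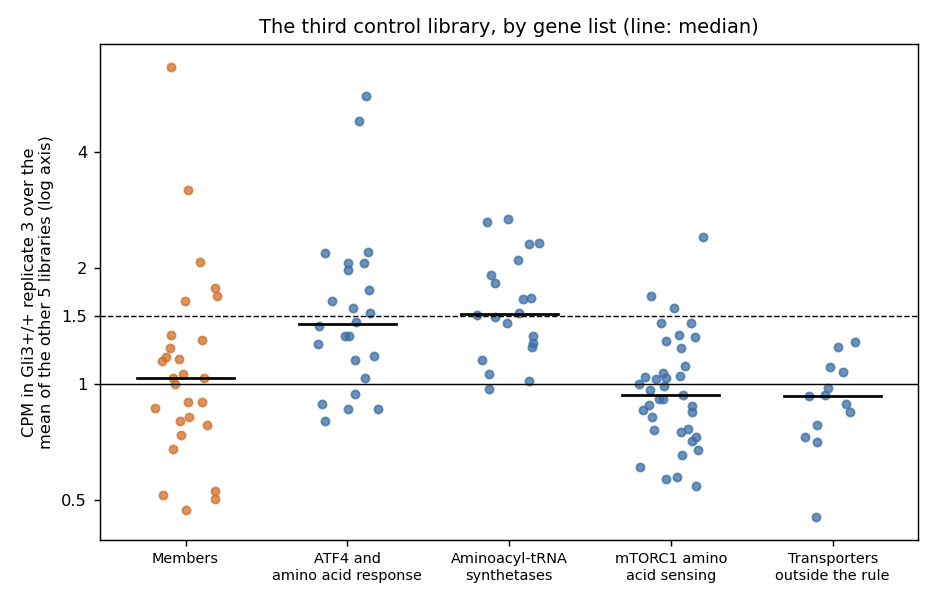
Ratio of the CPM in control replicate 3 to the mean of the other 5 QSC libraries on a log axis, 1 point per gene with a mean of at least 1 CPM, for the members and 4 lists, with the median as a line and a dashed line at 1.5. The medians are 1.04, 1.43, 1.52, 0.94 and 0.93 from left to right, and *Slc7a1* and *Slc7a5* are the highest points of the members. The list of NRF2, cystine and glutathione is not drawn.

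The sequence before *Slc7a1* is shown beside that of *Slc7a11*, because *Slc7a1* deviated most in control replicate 3 and *Slc7a11*, a textbook ATF4 target, did not (1.02 CPM there, 0.804 times the mean of the others). The *Slc7a11* value is near the floor, from 29 to 108 counts per library. The runs are chr5:148399905-148400154 and chr3:50443615-50443863, both on the minus strand of GRCm38.p6, with capitals for matches to the same motifs.
Slc7a1: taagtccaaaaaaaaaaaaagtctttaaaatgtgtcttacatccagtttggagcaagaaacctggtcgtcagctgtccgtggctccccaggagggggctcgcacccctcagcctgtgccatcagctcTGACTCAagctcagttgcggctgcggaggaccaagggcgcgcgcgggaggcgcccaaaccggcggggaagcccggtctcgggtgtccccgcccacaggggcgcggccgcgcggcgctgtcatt
Slc7a11: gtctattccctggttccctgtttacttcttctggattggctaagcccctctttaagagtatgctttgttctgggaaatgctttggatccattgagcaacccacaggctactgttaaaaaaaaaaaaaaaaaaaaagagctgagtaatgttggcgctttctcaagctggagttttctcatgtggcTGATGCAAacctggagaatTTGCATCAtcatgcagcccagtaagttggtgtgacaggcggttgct
*Slc7a11* held 2 matches to TGATGNAA, starting 66 and 47 bases before the start on opposite strands, a motif found in 3.45% of all promoters and otherwise only in 2 promoters listed for *Slc7a7* among the members. *Slc7a1* held TGANTCA starting 123 bases before the start, a motif in 6.75% of all promoters and in 4 members, and no TGATGNAA in this window. Sequence after the start was not searched, and control by ATF4 or other factors was not tested. *Slc7a5*, *Slc1a5* and *Slc38a1* had no entry in the table.

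The wider amino acid pathway was described by fixed lists of genes. Over all genes edgeR called 0.351%, and 7.11% had an unadjusted p under 0.05. Among 25 genes of ATF4 and the amino acid response edgeR called 0, 2 were lower at an unadjusted p under 0.05 and 0 higher, and the median log2 fold change was -0.18. Over its 24 expressed genes the median was -0.16, and 0.04 without control replicate 3, so its sign rested on that library. The pair lower were *Cth*, the last enzyme of cysteine synthesis, at 5.24 to 7.77 CPM in *Gli3*+/+ and 2.57 to 3.54 CPM in *Gli3*Δ/Δ QSCs (adjusted p = 0.26 by edgeR and 0.0224 by DESeq2), and *Trib3*, a pseudokinase gene, at 0.72 to 1.23 CPM against 0.42 to 0.5 CPM (log2 fold change -0.98, and -0.7 without control replicate 3). Without control replicate 3 edgeR called 1 gene of this list, *Phgdh*, the first enzyme of serine synthesis, which then differed by 1.17 on the log2 scale (adjusted p = 0.0264). *Phgdh* was 26.1, 20.0 and 66.0 CPM in *Gli3*+/+ and 53.0, 56.1 and 45.7 CPM in *Gli3*Δ/Δ QSCs. With all 6 libraries its log2 fold change was 0.47 (adjusted p = 0.895 by edgeR and 0.988 by DESeq2). Its highest value was in control replicate 3, so leaving that library out raises the difference by construction. Of the 20 synthetases edgeR called 0, with 0 at an unadjusted p under 0.05 and a median log2 fold change of -0.1, which turned to 0.24 without control replicate 3. Of 12 genes of NRF2, cystine and glutathione it called 0, with 2 lower at an unadjusted p under 0.05. These were *Gclc*, a subunit gene of the enzyme that starts glutathione synthesis, at 51.1, 61.3 and 80.5 CPM against 49.3, 46.5 and 45.2 CPM (log2 fold change -0.45, and -0.26 without control replicate 3), and *Srxn1*, the sulfiredoxin gene, at 140 CPM in control replicate 3 and 14.4 to 18.4 CPM in the other 5 libraries (log2 fold change -1.85, and -0.05 without control replicate 3). Of 18 measured amino acid transporters outside the rule it called 0, and 0 passed an unadjusted p under 0.05.

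Among 37 measured genes of mTORC1 amino acid sensing edgeR called 0, against 0.351% of all genes. At an unadjusted p under 0.05 there were 2, both lower, where 7.11% of all genes passed. The median log2 fold change was 0.04. *Deptor*, which encodes an inhibitor that binds mTOR, was measured at 391, 380 and 602 CPM in *Gli3*+/+ and at 114, 216 and 153 CPM in *Gli3*Δ/Δ QSCs. All 3 knockout libraries were well below the controls, with a log2 fold change of -1.51 ± 0.27 and an adjusted p of 0.0744 by edgeR and 9.69e-06 by DESeq2. Without control replicate 3 its log2 fold change was -1.26 (adjusted p = 0.0963 by edgeR and 9.64e-05 by DESeq2), and without *Gli3*Δ/Δ replicate 2 edgeR called it (adjusted p = 0.0443). *Mios*, a subunit gene of the GATOR2 complex that conveys amino acid signals to mTORC1, was measured at 38.9, 42.1 and 55.1 CPM against 30.2, 34.4 and 28.7 CPM (log2 fold change -0.54 ± 0.17, unadjusted p = 0.00974, adjusted p = 0.425 by edgeR, and a log2 fold change of -0.38 without control replicate 3).

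**Figure D5:**
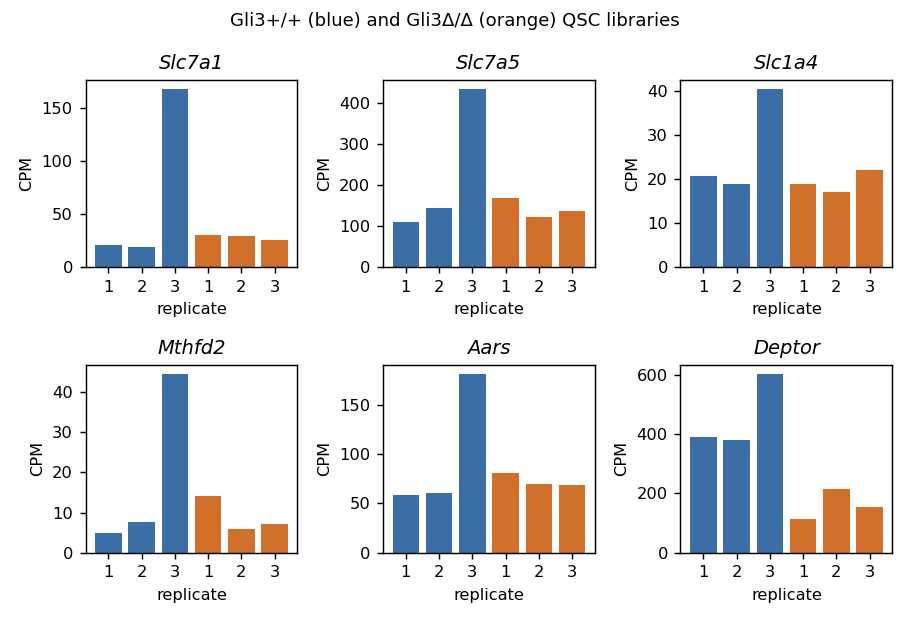
CPM by library for the members *Slc7a1*, *Slc7a5* and *Slc1a4* and for *Mthfd2*, *Aars* and *Deptor*, with *Gli3*+/+ in blue and *Gli3*Δ/Δ in orange and bars from 0. Control replicate 3 is the tallest bar in each panel, and *Deptor* differs from the other 5 in that all 3 knockout bars lie below all controls.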

How the data were processed

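Reads of 12 libraries were mapped by the authors to GRCm38 transcripts with GENCODE vM19 using salmon, summed per gene with tximport, and kept for genes with 5 or more reads in 2 or more samples. The deposited table holds estimated counts, 49.2% of them not whole in the QSC libraries at a tolerance of 1e-09. The 6 columns of activated cells carry names that match no sample label and were not used. The 4 deposited comparison tables hold DESeq2 fold changes and p-values, which were not used; their gene types were, as was the authors' mean signal over all samples (DESeq2-normalised counts). Salmon's strand setting is not given in the sources used here, although the kit keeps strand; *Slc1a1*, *Slc38a10*, *Slc3a1*, *Slc43a2*, *Slc7a4* and *Slc7a7* overlap exons of genes on the other strand.

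Counts were rounded and fitted over all 25093 genes in R 4.3.3 with edgeR 4.0.16 (TMM, quasi-likelihood, Benjamini-Hochberg over all genes; a call needed an adjusted p below 0.05 with a 1.2-fold change or more), with DESeq2 1.42.0 and limma 3.58.1 as alternatives, each tested on simulated data. CPM, counts scaled to library size, are TMM-normalised, and lengths come from GENCODE vM21 (GRCm38). An exact permutation test of 3 against 3 cannot go below p = 0.1, so none was run on single values. Members and gene lists were chosen with earlier results of these data known. Values per library are given for members that were called, had an unadjusted p under 0.05, were among the 10 highest per kilobase or the 6 largest changes with a mean count of at least 100, and for *Slc3a2*, its light chains and the carriers linked to mTORC1. *Slc1a4*, *Slc7a4* and the comparison of control replicate 3 with the other 5 libraries were chosen after the values were seen. Each library is a pool of 2 to 3 mice.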

Additional observations from a re-analysis of the deposited data

How the results depend on the processing

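With 3 libraries per genotype, a member had to differ by much more than the libraries of 1 genotype to be called, and members under 1 CPM rest on few counts. The comparisons with activated cells, their alternatives and the fit over all groups were not run, because the activated columns match no sample label. No member was called under any edgeR or limma-voom alternative. DESeq2 called 2 of the 34 members to which it gave an adjusted p, and with each library left out in turn it called 1 to 3 (added after its calls were seen). Over all genes 88 were called, against 384 by DESeq2, 48 with at least 10 counts in every library, 40 among protein-coding genes only, and 58 to 499 over the fits that leave out 1 library, the highest by DESeq2. The ATF4 list had 0 called, 1 by DESeq2 and 0 to 3 with 1 library left out, the most by DESeq2 without control replicate 3. The mTORC1 list had 0, 1 by DESeq2 and 0 to 1 with 1 library left out. The synthetases had 0, and 0 to 1 with 1 library left out.

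With the replicate number as a block, 0 members and 79 genes were called. The numbers do not pair the libraries: deviations of same-numbered libraries correlated at -0.276, -0.0196 and -0.0642. The block moved *Slc7a1* to a log2 fold change of -0.43 and changed no member's call.

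For the 24 members with values, 432 of 479 alternative values kept their sign and their side of the threshold, 33 changed sign and 14 were newly called with the same sign. A value that changed sign and was also called counts among the 33, as for *Slc7a1* by DESeq2 without control replicate 3. Most sign changes were between values near 0. *Slc7a1* went to 0.074 under limma-voom and ranged from -1.72 to 0.498 with 1 library left out, by edgeR and DESeq2 together, and *Slc7a5* from -1.03 to 0.157. With 1 library left out, both turned positive only without control replicate 3. Under limma-voom *Slc43a3* was 0.030, *Slc43a2* 0.024 and *Slc7a6* 0.0069, and under library totals *Slc43a3* was 0.0055. With 1 library left out the log2 fold changes ran from -0.254 to 0.218 for *Slc43a3*, -0.385 to 0.120 for *Slc43a1*, -0.057 to 0.168 for *Slc38a10*, -0.384 to 0.128 for *Slc43a2*, -0.184 to 0.045 for *Slc7a6os*, -0.386 to 0.198 for *Slc7a6*, -0.152 to 0.086 for *Slc36a4* and -0.065 to 0.713 for *Slc7a11*.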

Other observations

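The authors' mean over all samples of their fit, which includes activated cells, was set beside the mean of the 6 QSC libraries for each gene. The sources were normalised separately, so only the position of a gene among others is described, with no test, and this measure was chosen after seeing the data. Over 14696 genes with a mean of at least 1 CPM the ratio of the means had a median of 0.909, with 90% of genes between 0.531 and 2.71. Of the 28 members, 11 lay above the median. *Slc1a3* (0.47), *Slc38a3* (0.475), *Slc43a1* (0.485), *Slc7a8* (0.487) and *Slc43a3* (0.489) were among the lowest, between percentiles 1.2 and 2.3, and *Slc7a2* (0.536) was at percentile 5.5. The QSC mean is the denominator of the ratio, so a QSC level that is high relative to the other samples lowers it by construction. The QSC libraries are also part of the authors' mean, so the ratio has a lower limit. *Slc1a5*, the glutamine carrier ASCT2, had the highest ratio of the members at 2.15 (percentile 92.5), followed by *Slc7a11* (1.56), *Slc38a4* (1.5), *Slc38a1* (1.42), *Slc7a6* (1.4) and *Slc7a4* (1.39). *Slc38a2* (0.856) and *Slc3a2* (0.85) were close to the median.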
